A study of Mus musculus with 24 samples.

Results

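The Cyp2c genes encode a family of cytochrome P450 monooxygenases of the liver, and their messenger RNA was described here in livers of mice on 5 diets. The 10 members were taken by gene symbol from a table of 34436 symbols: Cyp2c29, Cyp2c37, Cyp2c38, Cyp2c39, Cyp2c40, Cyp2c50, Cyp2c54, Cyp2c55, Cyp2c68 and Cyp2c69. Cyp2c70, an enzyme of bile acid synthesis, was not a member. All animals were wild-type C57BL/6 mice that were put on their diet at an age of 8 to 10 weeks and ate it for 8 weeks, after which RNA was sequenced from a frozen piece of whole liver. The diets with libraries were normal chow (NC, 4 libraries), sucrose-rich feed (high sucrose, HS, 5 libraries), the same with 2% cholesterol (HS_Chol, 3), cholic acid (CA, 4) and 2% cholesterol with cholic acid (Chol_CA, 4). The labels name no base feed for CA and Chol_CA. They number the livers but do not say that each is a separate animal, so every p-value measures the spread between these samples. Libraries carry the numbers of the count table, which start at 0. Of the samples titled HS, 1 has normal chow as its diet label, and which column holds it is unknown. The 5 HS columns were used together, and each was left out in turn.

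P450 enzymes sit in the membrane of the endoplasmic reticulum, bind haem and oxidise their substrates with electrons passed on by the reductase Por. The Cyp2c enzymes oxidise many drugs, and several turn arachidonic acid into epoxides or hydroxy acids that act as lipid signals. In liver the genes are known to respond to the nuclear receptors CAR (gene Nr1i3) and PXR (gene Nr1i2), which sense foreign compounds and bile acids, and many of them are read mostly in the hepatocytes around the central vein.

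All 10 members lie in 1 cluster on chromosome 19 of GRCm38, from the start of Cyp2c55 at 39007019 to the end of Cyp2c50 at 40113950 (GENCODE M21), and all are protein-coding. They fall into 4 groups by coding sequence. Cyp2c29 (39269405 to 39330713, plus strand), Cyp2c38 (39389556 to 39463075, minus strand) and Cyp2c39 (39510862 to 39568529, plus strand) form the first, with 94.2% identity between Cyp2c38 and Cyp2c39. Cyp2c37 (39992424 to 40012243, plus strand), Cyp2c54 (40037940 to 40073827, minus strand) and Cyp2c50 (40089688 to 40113950, plus strand) form the second, with 96.1% between Cyp2c37 and Cyp2c50. Cyp2c68 (39688834 to 39741054), Cyp2c40 (39767071 to 39812814) and Cyp2c69 (39842814 to 39886799), all on the minus strand, form the third together with Cyp2c67, and Cyp2c40 and Cyp2c68 share 98.1% of their coding bases. Cyp2c55 (39007019 to 39042693, plus strand) stands alone.

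The promoters show how alike the members are before their start sites. The windows printed are the 250 bases before the RefSeq start of 5 members, on the strand of the gene (GRCm38.p6), chosen because Cyp2c55, Cyp2c29 and Cyp2c38 rose with cholic acid while Cyp2c50 fell, and because Cyp2c37 and Cyp2c50 are near copies. Capitals mark CAAAGTC, the core of a binding motif of the liver receptor HNF4A.
Cyp2c55: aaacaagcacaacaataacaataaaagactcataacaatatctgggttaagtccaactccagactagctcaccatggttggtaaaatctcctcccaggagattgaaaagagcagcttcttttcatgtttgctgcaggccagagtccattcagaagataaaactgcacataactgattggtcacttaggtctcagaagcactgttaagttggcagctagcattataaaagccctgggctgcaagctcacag
Cyp2c29: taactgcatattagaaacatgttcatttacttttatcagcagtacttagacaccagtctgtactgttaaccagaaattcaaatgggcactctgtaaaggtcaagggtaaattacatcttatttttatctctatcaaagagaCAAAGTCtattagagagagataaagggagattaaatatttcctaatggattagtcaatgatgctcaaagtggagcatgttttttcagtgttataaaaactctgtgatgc
Cyp2c38: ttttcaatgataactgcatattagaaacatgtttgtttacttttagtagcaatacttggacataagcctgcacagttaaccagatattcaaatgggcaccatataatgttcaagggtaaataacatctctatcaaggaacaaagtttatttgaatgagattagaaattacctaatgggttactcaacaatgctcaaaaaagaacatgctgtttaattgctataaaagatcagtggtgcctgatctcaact
Cyp2c37: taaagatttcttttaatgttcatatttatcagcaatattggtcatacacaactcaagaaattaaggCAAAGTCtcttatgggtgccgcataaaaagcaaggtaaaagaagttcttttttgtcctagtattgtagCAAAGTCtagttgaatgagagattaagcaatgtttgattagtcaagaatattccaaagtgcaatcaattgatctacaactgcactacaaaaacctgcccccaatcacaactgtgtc
Cyp2c50: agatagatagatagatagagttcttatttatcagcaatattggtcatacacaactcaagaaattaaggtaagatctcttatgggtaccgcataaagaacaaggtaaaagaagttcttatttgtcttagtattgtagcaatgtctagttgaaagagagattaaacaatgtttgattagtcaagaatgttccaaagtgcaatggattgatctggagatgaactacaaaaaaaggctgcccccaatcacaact
These windows lie at chr19:39006769-39007018, chr19:39286835-39287084, chr19:39463076-39463325 (minus strand), chr19:39992174-39992423 and chr19:40089429-40089678. RefSeq windows of 250 bases before to 50 after the start were at hand for 9 of the 10 members, and Cyp2c54 had no entry. On either strand, CAAAGTC was found in 6 of the 9 and in 4.44% of all 32851 windows. It stood in Cyp2c29 (first base 109 before the start), in Cyp2c39, Cyp2c40, Cyp2c68 and Cyp2c69, and at 2 places in Cyp2c37, and these letters were not in the windows of Cyp2c38, Cyp2c50 and Cyp2c55. The windows of Cyp2c40, Cyp2c68 and Cyp2c69 share 93.6% to 98.9% of their aligned bases, so the 6 are not separate cases. Cyp2c29 and Cyp2c38 differed in CAAAGTC, as did the near copies Cyp2c37 and Cyp2c50. Whether these letters bear on the response to the diets was not tested. The hexamer AGGTCA, bound by many nuclear receptors, was found in the window of Cyp2c29 alone (16.3% of all windows) and its variant AGTTCA in those of Cyp2c39, Cyp2c40, Cyp2c50 and Cyp2c69 (14.0%). The STAT5 motif TTCNNNGAA was in none of the 9 (8.30% of all windows), and TATAAA was in 6 (13.6%). No match of 1 motif overlapped a match of another, and a match is a run of letters, not a site shown to be bound.

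Near-identical members can lose or share reads. A read of 50 bases that fits 2 genes has no single place in the genome, so the share of 50-base stretches of a member's transcripts that occur in no other gene was counted. It was 98.9% for Cyp2c55, 95.8% for Cyp2c29, 92.6% for Cyp2c38 and 88.0% for Cyp2c39. It was 81.7% for Cyp2c50, 74.3% for Cyp2c54 and 69.9% for Cyp2c37. It was lowest in the third group, at 56.7% for Cyp2c68, 45.7% for Cyp2c69 and 39.7% for Cyp2c40. For Cyp2c67, of the same group but not a member, it was 47.2%. The values of Cyp2c68, Cyp2c69, Cyp2c40 and Cyp2c67 are therefore uncertain as to which gene the RNA came from, and those of Cyp2c37, Cyp2c50 and Cyp2c54 less so. Cyp2c29 also overlaps the pseudogene Cyp2c53-ps on the same strand over 142 exonic bases, and Cyp2c53-ps itself held at most 1.15 CPM in any library. Cyp2c55 overlaps the miRNA gene Gm23800 on the other strand over 64 bases.

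**Figure D1:**
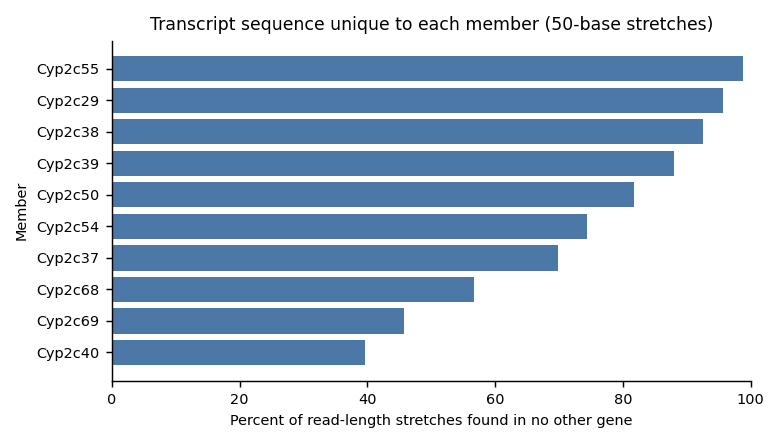
Share of each member's 50-base transcript stretches that occur in no other gene, in percent (horizontal axis), with 1 bar per member. Cyp2c55 is at 98.9% and Cyp2c40 at 39.7%.

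The libraries held 6110484 to 10244277 reads (median 7639777). Levels are given as CPM, the reads of a gene per 1000000 reads of effective library size, and errors beside them are standard deviations between libraries. Counts fell with transcript length, relative to the other libraries, in 8 (CA_0, Chol_CA_0, Chol_CA_1, HS_0, HS_1, HS_2, HS_Chol_0 and NC_3, called libraries of negative length trend) and rose with it in 12. Reads on light-strand mitochondrial tRNA genes, which wrong-strand reads would raise, were set against 1000000 reads of heavy-strand mRNA. There were 673 to 900 of them in each HS_Chol library, against 8.95 to 83.4 elsewhere. The summed level of 9 hepatocyte markers was 134032 to 135900.0 CPM in NC and 77596 to 86180.3 CPM in Chol_CA, and that of 16 Kupffer cell and macrophage markers 189.9 to 331 CPM in NC, 405 to 1155 CPM in CA and 1531 to 5021 CPM in Chol_CA. Of the 9 hepatocyte markers, Alb alone held 90972 ± 3715 CPM in NC and 40655 ± 8146 CPM in Chol_CA, so it weighs most in their sum. In Chol_CA against NC 1 of the 9 rose and 2 fell past the test described below, where 15.0% and 9.35% of all tested genes did. Their median log2 fold change was −0.09 against −0.0015 for all tested genes. In whole liver, fewer hepatocytes and less RNA per hepatocyte cannot be told apart.

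On chow Cyp2c29, which can epoxidise arachidonic acid, was the highest of the 10 members. Per kilobase of sequence unique to the gene, the mean level in NC was 671 CPM for Cyp2c29, 210.3 for Cyp2c50, 136 for Cyp2c37, 121 for Cyp2c68 and 117 for Cyp2c54. Cyp2c38 stood at 18.1 and Cyp2c55 at 9.49 CPM per kilobase. Cyp2c69, Cyp2c40 and Cyp2c39 were the lowest, at 1.74, 1.33 and 0.974 CPM per kilobase. Of the Cyp2c genes that are not members, Cyp2c67 stood at 395, Cyp2c44 at 322 and Cyp2c70 at 252 CPM per kilobase, between Cyp2c29 and Cyp2c50. Cyp2c40 had 0 to 12 reads in each of the 20 libraries and did not pass the filter on low counts, so tests cover the other 9 members. Cyp2c69 passed that filter only through NC, its highest diet. It had 10, 14, 16 and 1 reads there and at most 5 in each library of the other diets. Its lower values against NC are thus favoured by the filter, and it adds no support to counts of members lower than NC.

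The summed level of the 10 members differed strongly between diets. It was 2923, 2968, 2941 and 3205 CPM in the 4 NC libraries, 1540.2, 1637, 1302, 1096 and 1023 CPM in HS, 2538, 2342 and 2080.0 CPM in HS_Chol, 3922, 5979, 11529 and 7369.6 CPM in CA and 885, 726, 699 and 1048 CPM in Chol_CA. Every CA library lay above every NC library, and every HS, HS_Chol and Chol_CA library lay below every NC library. The members held 0.269% to 0.283% of all reads in NC, 0.425% to 1.14% in CA and 0.0805% to 0.116% in Chol_CA. The make-up of these reads changed as well. Cyp2c29 made up 66.4% ± 3.59 (SD) of the member reads in NC and 83.0% ± 2.27 in CA, while Cyp2c50 made up 16.8% ± 2.22 in NC and 3.79% ± 0.760 in CA. Cyp2c55 took 0.610% ± 0.130 in NC and 7.28% ± 2.30 in CA. These shares are of reads, not corrected for transcript length.

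**Figure D2:**
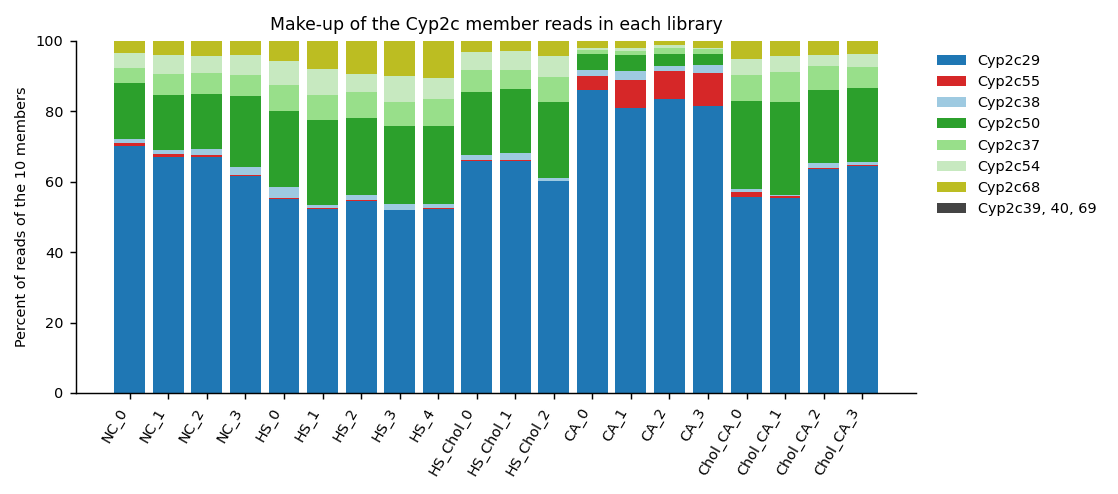
Share of each member in the reads of the 10 members (vertical axis, percent) in each of the 20 libraries, stacked by member. Cyp2c29 holds 80.8% to 85.9% in the 4 CA libraries and 51.8% to 70.2% in the others.

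Cholic acid alone against chow split the family. Cyp2c55 and the 3 members of the Cyp2c29 group rose, Cyp2c50, Cyp2c54 and Cyp2c69 fell, and Cyp2c37 and Cyp2c68 did not pass the test. A call here and below is a Benjamini-Hochberg adjusted p under 0.05 over 12595 genes in edgeR's quasi-likelihood test. Thus 4 of 9 tested members were higher and 3 lower, where 5.22% and 4.61% of all tested genes were. The 3 lower include Cyp2c69, which passed the filter only through NC. The ranges of the diets did not overlap for 3 members with higher and 2 with lower values in CA, where 7.23% and 6.38% of all genes had such ranges. The members' median log2 fold change was 0.10 against 0.01 for all tested genes.

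Cyp2c55, an oxidase of arachidonic acid that is well known from colon and kidney, moved most. It stood at 22.5, 19.4, 16.1 and 15.1 CPM in NC and at 156, 477, 899.6 and 689 CPM in CA. The groups did not overlap, and CA_0 was the lowest CA library by a wide margin. The log2 fold change was 4.93 ± 0.47 (standard error; adjusted p = 1.31e-06), or 30.4-fold, and 5.24 without CA_0. The intestinal transcription factor genes Cdx1 and Cdx2 had 0 reads in each of the 20 libraries, where 3 reads would be 0.293 to 0.492 CPM. Of 8 intestinal epithelium markers, Cdx1, Cdx2, Muc2 and Sis had 0 reads in all NC and CA libraries, and the sum of the list was 189 to 336 CPM in NC and 172 to 488 in CA. The rest of the list was read in both diets. Apoa4 had 5193 reads in all of NC and 7393 in all of CA, Fabp2 1546 and 2792, Lgals4 373 and 431, and Vil1 24 and 22. Which cells the Cyp2c55 reads came from was not tested.

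Cyp2c29 stood at 2051, 1991, 1969.9 and 1972 CPM in NC and at 3369, 4833, 9626 and 6013 CPM in CA. Its 4 NC libraries lay close together and every CA library lay above them, with CA_2 the highest. The log2 fold change was 1.58 ± 0.25 (standard error; adjusted p = 0.000311), or 2.99-fold. Cyp2c38, another arachidonic acid epoxygenase, went from 30.1, 39.2, 49.3 and 70.2 CPM in NC to 74.4, 160.4, 182 and 160.1 CPM in CA. The nearest libraries of the groups, NC_3 and CA_0, were close, and these are the single NC and CA libraries with a negative length trend. The log2 fold change of Cyp2c38 was 1.61 ± 0.42 (standard error; adjusted p = 0.0165), and the call was lost without NC_0 (adjusted p = 0.0667) or NC_1 (0.0548). With only the 12 libraries of positive trend it was 2.08 (adjusted p = 0.00508). Cyp2c39, an epoxygenase that also oxidises retinoic acid, had 9, 8, 14 and 13 reads in the NC libraries and 15, 45, 88 and 81 reads in CA. Here CA_0 fell within the NC range in CPM and the other CA libraries lay above it, and the log2 fold change was 2.00 ± 0.42 (adjusted p = 0.0044).

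In the Cyp2c37 group, whose enzymes make epoxides and hydroxy products of arachidonic acid, 2 members fell. Cyp2c54 stood at 128, 159, 137 and 182 CPM in NC and at 22.3, 37.2, 70.2 and 20.6 CPM in CA. Every CA library lay below every NC library, and the log2 fold change was −2.01 ± 0.32 (standard error; adjusted p = 0.000311). Cyp2c50 stood at 468, 458, 462 and 645 CPM in NC and at 175, 264, 379 and 221 CPM in CA, again without overlap (log2 change −0.97 ± 0.22, adjusted p = 0.00648). Cyp2c37, which hydroxylates arachidonic acid, stood at 126, 184, 177 and 189.7 CPM in NC and at 44.9, 78.8, 217 and 113 CPM in CA. CA_2 was above all NC libraries while the other 3 CA libraries were below them, and the log2 fold change of −0.58 ± 0.31 (adjusted p = 0.29) became −1.11 (adjusted p = 0.00777) without CA_2.

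Of the third group, Cyp2c68 stood at 94.1, 113, 124 and 128 CPM in NC and at 77.2, 124, 146 and 144 CPM in CA, with overlapping ranges (log2 change 0.10 ± 0.19, adjusted p = 0.836). Cyp2c69 had 10, 14, 16 and 1 reads in NC and 0, 1, 1 and 2 in CA, so its log2 fold change of −3.50 (adjusted p = 0.00313) rests on few reads and the ranges overlapped at NC_3. Cyp2c40 had 7, 12, 9 and 6 reads in NC and 0, 1, 3 and 3 in CA and was not tested. In 7 of the 8 members with reads in every library CA_0 was the lowest CA library, Cyp2c54 being the exception, and in all 8 CA_2 was the highest.

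**Figure D3:**
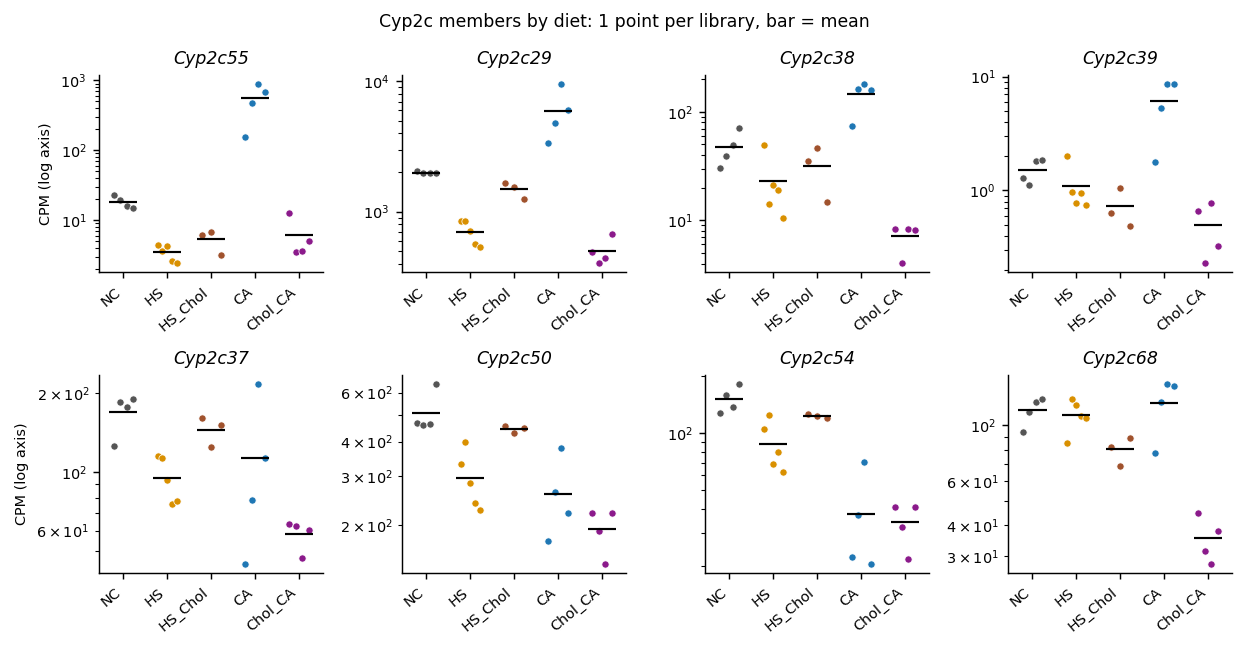
CPM on a log axis (vertical) for 8 members in each library, by diet (horizontal). Points are single libraries and bars the mean, and Cyp2c55, Cyp2c29 and Cyp2c38 stand above the NC range in all 4 CA libraries.

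Cholesterol with cholic acid against chow lowered all 9 tested members, where 9.35% of all tested genes were lower and 15.0% higher. Cyp2c69, let in by the filter only through NC, adds no support to this count. The ranges did not overlap for any of the 9, where 9.56% of all genes had every Chol_CA library below every NC library. For Cyp2c69 that gap is 1 read in NC_3 against 1 read in Chol_CA_0 and rests on library size, and its value on 3 reads in all of Chol_CA. The median log2 fold change was −1.69 against −0.0015 for all tested genes, and the members ranged from −3.82 (Cyp2c69) to −1.39 (Cyp2c50). The comparison shares its NC libraries with the one of cholic acid alone.

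Cyp2c29 stood at 492, 401, 444 and 674 CPM in the 4 Chol_CA libraries. All lay below the lowest NC library, and the log2 fold change against NC was −1.99 ± 0.25 (standard error; adjusted p = 9.11e-06). Cyp2c38 stood at 8.35, 4.01, 8.30 and 8.12 CPM (log2 change −2.71 ± 0.46, adjusted p = 0.000159) and Cyp2c55 at 12.6, 3.44, 3.61 and 5.09 CPM (log2 change −1.58 ± 0.44, adjusted p = 0.0119). Chol_CA_0 was the highest of the 4 for Cyp2c55 and still below the lowest NC library. Cyp2c68 stood at 44.6, 31.4, 28.0 and 37.8 CPM (log2 change −1.69 ± 0.20, adjusted p = 3.59e-06). Cyp2c54 stood at 41.1, 32.2, 21.9 and 41.1 CPM (log2 change −2.15 ± 0.32, adjusted p = 4.32e-05), Cyp2c37 at 63.7, 62.4, 47.1 and 60.2 CPM (log2 change −1.54 ± 0.31, adjusted p = 0.000991) and Cyp2c50 at 222, 190.5, 146 and 221 CPM (log2 change −1.39 ± 0.22, adjusted p = 8.39e-05). Without Chol_CA_0 the log2 change of Cyp2c55 was −2.21. Cyp2c39, with 5, 2, 8 and 3 reads in Chol_CA, fell by 1.57 on the log2 scale (adjusted p = 0.035), and that call was lost without NC_2 (adjusted p = 0.0891), NC_3 (0.0688), Chol_CA_1 (0.113) or Chol_CA_3 (0.0676). Cyp2c69 had 1, 1, 0 and 1 reads and Cyp2c40 2, 0, 1 and 1.

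Cholesterol on top of cholic acid, Chol_CA against CA, asks what cholesterol changed where cholic acid was fed. Of 9 tested members 6 were lower and none higher, where 7.8% and 13.4% of all tested genes were, and the median log2 fold change was −1.79 against 0.02 for all tested genes. This comparison shares the CA libraries with that of CA against NC, so that a gene high in CA by chance would rise in that one and fall here. Cyp2c55 fell by 6.51 ± 0.51 on the log2 scale (91.1-fold, adjusted p = 1.53e-07; −7.13 on that scale without Chol_CA_0), and Cyp2c38 by 4.32 ± 0.48 (adjusted p = 8.21e-06). Cyp2c29 had a log2 change of −3.57 ± 0.27 (adjusted p = 1.31e-07) and Cyp2c39 of −3.57 ± 0.48 (adjusted p = 5.54e-05). For these 4 members every Chol_CA library lay below every CA library. Cyp2c68, which cholic acid alone did not change past the test, fell by 1.79 ± 0.20 without overlap (adjusted p = 7.61e-06). In all, 5 of 9 members had every Chol_CA library lower, where 7.22% of all genes had.

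Of the Cyp2c37 group and Cyp2c69, 3 did not pass and 1 did. Cyp2c54 had a log2 change of −0.15 ± 0.31 (adjusted p = 0.801), Cyp2c50 of −0.42 ± 0.22 (adjusted p = 0.191) and Cyp2c69 of −0.32 ± 1.05 (adjusted p = 0.877). A value that misses the threshold does not show that the diets were alike. Cyp2c37 passed with −0.96 ± 0.31 (adjusted p = 0.032) although the ranges overlapped. The call was lost without CA_2 (−0.47, adjusted p = 0.22), CA_3 (adjusted p = 0.0515), Chol_CA_1 (0.0574) or Chol_CA_2 (0.0884), and when the reads of Cyp2c37, Cyp2c50 and Cyp2c54 were summed (−0.49, adjusted p = 0.161).

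**Figure D4:**
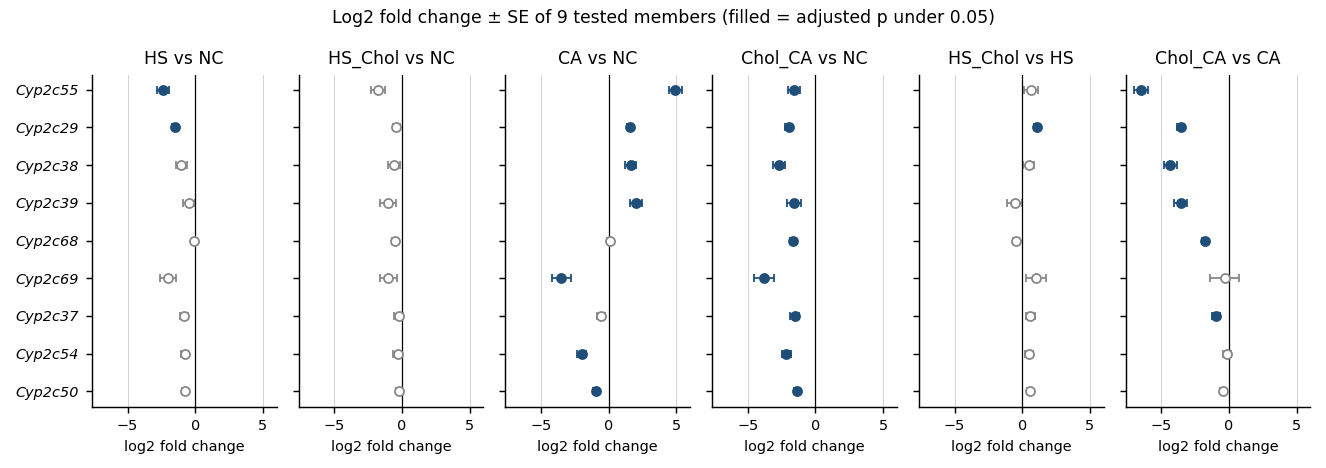
Log2 fold change with its standard error (horizontal axis) of the 9 tested members in 6 comparisons, filled where the adjusted p is under 0.05. All 9 lie left of 0 for Chol_CA against NC, while for CA against NC 4 filled points lie right of 0 and 3 left of it.

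High sucrose against chow lowered 2 of 9 tested members, where 0.437% of all tested genes were lower and 0.214% higher. All 9 had negative log2 fold changes (median −0.83 against 0.02 for all tested genes), among them Cyp2c69, which passed the filter only through NC. Cyp2c29 stood at 846, 854, 707, 568 and 535 CPM in the 5 HS libraries. All lay far below the lowest NC library, and the log2 fold change was −1.51 ± 0.23 (standard error; adjusted p = 0.00211). Cyp2c55 stood at 4.41, 3.58, 4.24, 2.59 and 2.40 CPM, also without overlap, with −2.40 ± 0.44 (adjusted p = 0.0109). Cyp2c37 (in HS at 115, 113, 93.6, 75.7 and 77.97 CPM), Cyp2c54 (104, 124, 68.6, 79.2 and 62.7 CPM) and Cyp2c50 (333, 399, 284, 241 and 227 CPM) also had every HS library below every NC library. Their log2 fold changes were −0.83 ± 0.29, −0.79 ± 0.29 and −0.78 ± 0.20, and none passed the test (adjusted p = 0.261, 0.287 and 0.101). In all 5 of 9 tested members had no overlap, where 2.66% of all genes had every HS library lower. Cyp2c68 stood at 84.8, 127, 121, 109 and 106 CPM in HS, within the range of NC apart from HS_0 (log2 change −0.06 ± 0.18, adjusted p = 0.906). Cyp2c38 (49.7, 14.2, 21.3, 19.0 and 10.5 CPM in HS) had HS_0 inside the NC range and the other 4 libraries below it (log2 change −1.04 ± 0.40, adjusted p = 0.32). Cyp2c69 had 1, 5, 2, 2 and 1 reads in HS (log2 change −2.04 ± 0.59, adjusted p = 0.15), and passed without NC_3 (−2.41, adjusted p = 0.0178). Cyp2c39 had 14, 6, 5, 7 and 5 reads and Cyp2c40 2, 2, 3, 7 and 4 in the HS libraries. With only the libraries of positive length trend, which leave HS_3 and HS_4 for HS, Cyp2c50 and Cyp2c69 were called lower as well. There Cyp2c69 rests on 2 and 1 reads in HS.

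With cholesterol added to sucrose none of the 9 tested members passed against chow (HS_Chol against NC), where 1.71% of all tested genes were higher and 0.564% lower. All 9 log2 fold changes were negative, with a median of −0.52 against 0.00 for all tested genes. That count again holds Cyp2c69, which passed the filter only through NC. The smallest unadjusted p-values of edgeR's test among the members were those of Cyp2c55 (0.00245) and Cyp2c68 (0.0214), and DESeq2 called Cyp2c55. Cyp2c55 stood at 6.07, 6.80 and 3.12 CPM in HS_Chol, every library below NC (log2 change −1.77 ± 0.51, adjusted p = 0.077). Cyp2c29 stood at 1672, 1540.0 and 1251 CPM, again every library below NC (log2 change −0.42 ± 0.27, adjusted p = 0.609). Cyp2c50 (455, 431 and 448 CPM) and Cyp2c54 (126, 123 and 120.3 CPM) lay just under the lowest NC library, and Cyp2c68 stood at 81.9, 69.1 and 89.3 CPM (log2 change −0.52 ± 0.21, adjusted p = 0.278). Cyp2c37 (161, 124 and 151 CPM) and Cyp2c38 (35.0, 45.9 and 14.6 CPM) each had 2 of 3 libraries inside the NC range. In all, 6 of 9 members did not overlap, where 5.57% of all genes had every HS_Chol library lower.

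Against HS, cholesterol raised 1 of 9 tested members, Cyp2c29, where 1.6% of all tested genes were higher, and lowered none, where 0.651% were lower. All HS_Chol libraries, and no others, had the high light-strand tRNA reads given above, so in the comparisons with HS_Chol and in the interaction the diet and that property of the libraries cannot be told apart. Every HS_Chol library lay above every HS library, with a log2 change of 1.08 ± 0.25 (standard error; adjusted p = 0.0182). That call was lost without HS_4 (adjusted p = 0.0553), HS_Chol_0 (0.133) or HS_Chol_1 (0.0734), which left 0 of 9 members. Cyp2c37 (log2 change 0.61 ± 0.31, adjusted p = 0.416) and Cyp2c50 (log2 change 0.58 ± 0.22, adjusted p = 0.228) did not overlap either but did not pass, so 3 of 9 had every HS_Chol library higher, where 6.33% of all genes had. Cyp2c55 had a log2 change of 0.64 ± 0.52 (adjusted p = 0.644), Cyp2c38 of 0.47 ± 0.43 (adjusted p = 0.687), Cyp2c54 of 0.49 ± 0.31 (adjusted p = 0.536) and Cyp2c68 of −0.45 ± 0.20 (adjusted p = 0.324).

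Whether cholesterol acted alike on both base diets was tested as the difference of the 2 log2 fold changes, Chol_CA against CA minus HS_Chol against HS. It was negative and past the test for 6 of 9 members, where 3.53% of all tested genes were, and positive for none, where 2.47% were. Cyp2c55 differed by −7.14 ± 0.69 (adjusted p = 1.90e-06) and by −7.76 without Chol_CA_0, Cyp2c38 by −4.79 ± 0.62 (adjusted p = 6.68e-05), Cyp2c29 by −4.65 ± 0.36 (adjusted p = 1.15e-07) and Cyp2c68 by −1.34 ± 0.27 (adjusted p = 0.00472). For Cyp2c29 the 2 effects had opposite signs and both passed. Cyp2c39 differed by −3.00 ± 0.79 (adjusted p = 0.0279), which was lost without CA_2 (adjusted p = 0.0535), HS_Chol_0 (0.0541), HS_Chol_1 (0.133) or Chol_CA_1 (0.0568). Cyp2c37 differed by −1.57 ± 0.44 (adjusted p = 0.0378), a call lost in 11 of the 16 fits that left out 1 library (HS_2, HS_3, HS_4, CA_2, CA_3, HS_Chol_0 to HS_Chol_2 and Chol_CA_0 to Chol_CA_2), with adjusted p up to 0.0851. Cyp2c50 missed the threshold (log2 change −1.0 ± 0.31, adjusted p = 0.0595), and Cyp2c54 (−0.63 ± 0.44) and Cyp2c69 (−1.34 ± 1.34) did not pass.

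The 10 members followed 5 orders of diets by mean level. Cyp2c29 fell in the order CA, NC, HS_Chol, HS and Chol_CA by mean, and only the last pair, HS and Chol_CA, overlapped in range. Cyp2c55 followed the order CA, NC, Chol_CA, HS_Chol and HS, with overlap between the neighbours of the last 3. Cyp2c38 followed CA, NC, HS_Chol, HS and Chol_CA, where NC, HS_Chol and HS overlapped with each other in turn and CA and Chol_CA stood clear. Cyp2c39 had the order CA, NC, HS, HS_Chol and Chol_CA with overlap at each step. Cyp2c37 followed NC, HS_Chol, CA, HS and Chol_CA, and only the last step was free of overlap. Cyp2c50 and Cyp2c54 both followed NC, HS_Chol, HS, CA and Chol_CA. NC and HS_Chol did not overlap for either, HS_Chol and HS did not for Cyp2c50, and the later neighbours overlapped. Cyp2c68 followed CA, NC, HS, HS_Chol and Chol_CA, and only Chol_CA stood clear of its neighbour. Cyp2c40 and Cyp2c69 followed NC, HS_Chol, HS, CA and Chol_CA with overlap at each step.

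The members within a sequence group did not always run together. The root mean square difference of log2 CPM, centred on each gene's mean over the 20 libraries, was smallest for Cyp2c37 and Cyp2c50 (0.29), while Cyp2c54 differed from Cyp2c37 by 0.63. It was 0.60 between Cyp2c29 and Cyp2c38 and 3.16 between Cyp2c54 and Cyp2c55, the least alike. Cyp2c38 and Cyp2c39 are the most alike in coding sequence of their group, and Cyp2c39 had between 1.83% (HS_Chol_0) and 9.41% (Chol_CA_2) as many reads as Cyp2c38 over the 20 libraries.

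By the same measure over 8914 other genes of at least 5 CPM, the gene most like Cyp2c29 was Ces2a, a carboxylesterase, at 0.42, then Ces1d (0.59) and Akr1c19 (0.63). For Cyp2c38 it was Gstt3, a glutathione transferase (0.69), then Ces1d and Ces2a. For Cyp2c55 it was Cyp3a59 (1.11), with Cyp2b13 also close (1.12), where Cyp2c55 itself had a root mean square deviation of 2.68 from its mean. Cyp2b13 had means of 0.0355 CPM in NC, 28.2 in CA and 0.082 in Chol_CA. It met the limit of 5 CPM through CA, so its closeness to a gene high in CA is favoured by that limit. For Cyp2c54 it was Cyp2e1 (0.46), then Slc47a1 and Tlcd2, and for Cyp2c50 Sardh (0.32), Gcdh and Car14. For Cyp2c37 it was Zfp36 (0.39), with Slc25a10 also close, and for Cyp2c68 Hacl1 (0.25), then Dlat and Decr1.

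Of the 5 other Cyp2c genes 3 were tested. In Chol_CA against NC 1 rose and 2 fell, where 15.0% and 9.35% of all tested genes did. Cyp2c70 rose in Chol_CA, from 509 ± 69.2 CPM in NC (SD, n = 4) to 1098 ± 180.1 CPM (n = 4), with a log2 change of 1.11 ± 0.20 (adjusted p = 0.000384) against NC and 0.88 ± 0.20 (adjusted p = 0.00418) against CA. It thus moved opposite to the 9 members in the first of these comparisons. Cyp2c44, an epoxygenase whose gene lies apart from the cluster and is named Cyp2c23 in the annotation, fell with cholic acid (log2 change −0.82 ± 0.19, adjusted p = 0.00922) and with cholesterol and cholic acid (log2 change −0.55 ± 0.19, adjusted p = 0.0416). The latter call was lost without NC_0 (adjusted p = 0.0669), NC_1 (0.116), NC_2 (0.157), Chol_CA_1 (0.145) or Chol_CA_2 (0.133). Cyp2c67 fell in both comparisons, by a log2 change of −0.88 ± 0.20 in CA (adjusted p = 0.00734) and in Chol_CA (log2 change −1.05 ± 0.20, adjusted p = 0.000585). Cyp2c65 had 0 to 2 reads and Cyp2c66 0 to 1 in each library.

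Of the receptors, Nr1i2 (PXR) stood at 64.2, 64.3, 79.6 and 78.1 CPM in NC, 99.9, 111, 149 and 151 in CA and 58.8, 52.7, 59.4 and 57.6 in Chol_CA. It rose with cholic acid (log2 change 0.84 ± 0.13, adjusted p = 0.000337) and was lower in Chol_CA than in CA (log2 change −1.16 ± 0.13, adjusted p = 1.24e-05), with no overlap in either comparison. It did not pass for HS (log2 change −0.09 ± 0.13, adjusted p = 0.787), HS_Chol (log2 change −0.09 ± 0.14, adjusted p = 0.916) or Chol_CA (log2 change −0.32 ± 0.13, adjusted p = 0.0861) against NC, and its interaction was −1.16 ± 0.19 (adjusted p = 0.000698). Nr1i3 (CAR) stood at 164 ± 52.3 CPM in NC, 136 ± 27.6 in CA and 98.5 ± 30.9 in Chol_CA and passed in none of the 7 comparisons. NC_3, HS_0 and HS_1, which have a negative length trend, were its highest NC and HS libraries. With only the libraries of positive trend Nr1i3 was lower in HS (−0.84, adjusted p = 0.00635) and in Chol_CA (−0.89, adjusted p = 0.000142) than in NC.

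Por, the reductase that feeds electrons to these enzymes, stood at 272, 306, 279 and 164 CPM in NC and 406, 635, 1224 and 1051 CPM in CA, above NC in all 4 CA libraries (log2 change 1.70 ± 0.26, adjusted p = 0.000229). It was 234, 213, 171 and 153 CPM in Chol_CA, below every CA library (log2 change −2.10 ± 0.26, adjusted p = 2.40e-05), and its interaction was −3.18 ± 0.36 (adjusted p = 1.31e-05). Por was higher in HS_Chol than in HS (log2 change 1.08 ± 0.26, adjusted p = 0.0247), without overlap. That call was lost without HS_1, HS_2, HS_3 or HS_4 (adjusted p up to 0.0624), HS_Chol_0 (0.101) or HS_Chol_1 (0.129). Its log2 fold changes against NC were −0.58 ± 0.24 (adjusted p = 0.368) in HS, 0.50 ± 0.27 (adjusted p = 0.516) in HS_Chol and −0.41 ± 0.25 (adjusted p = 0.277) in Chol_CA. Cyp2b10, the textbook CAR target, stood at 3.01, 1.52, 1.69 and 3.69 CPM in NC and 17.5, 65.2, 314 and 244 CPM in CA (log2 change 6.02 ± 0.68, adjusted p = 9.54e-06), and at 0 to 0.427 CPM in each HS, HS_Chol and Chol_CA library. In CA its lowest library was CA_0 and its highest CA_2, as for most Cyp2c members.

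**Figure D5:**
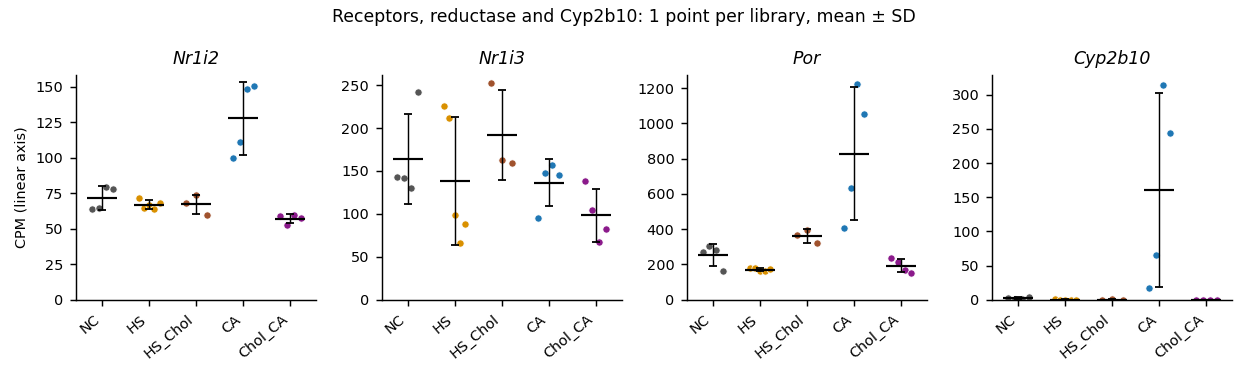
CPM (vertical, linear axis from 0) of Nr1i2, Nr1i3, Por and Cyp2b10 in each library by diet, with mean and SD. The 4 CA libraries of Por lie at 406 to 1224 CPM and those of Chol_CA at 153 to 234 CPM.

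Other genes of these pathways were counted as lists. Of all tested genes, 5.22% were higher and 4.61% lower in CA against NC. These shares were 15.0% and 9.35% in Chol_CA against NC, and 13.4% and 7.8% in Chol_CA against CA. They were 0.214% and 0.437% in HS against NC, 1.71% and 0.564% in HS_Chol against NC, and 1.6% and 0.651% in HS_Chol against HS. Of 24 tested CAR and PXR targets outside Cyp2c, 18 rose and none fell with cholic acid (median log2 fold change 1.95 against 0.01 for all tested genes), led by Cyp2b9 and by Ces2a, which went from 268 ± 17.6 to 1337 ± 562 CPM (log2 change 2.32 ± 0.23, adjusted p = 2.21e-06). Cyp2b9 stood at 0.277 to 1.14 CPM in NC and 24.6 to 291 CPM in CA, and passed the filter only through CA. Its rise here and its fall in Chol_CA against CA are favoured by the filter and add no support to these counts. Cyp2b13 of this list, with means of 0.0355 CPM in NC, 28.2 in CA and 0.082 in Chol_CA, may share this limit. In Chol_CA against CA 22 of the 24 fell and none rose (median −1.57 against 0.02 for all tested genes), and against NC 2 rose and 8 fell. In HS 6 of 24 fell, among them the P450 gene Cyp3a11 (log2 change −2.81 ± 0.27, adjusted p = 8.32e-06) and the epoxide hydrolase gene Ephx1 (log2 change −1.60 ± 0.19, adjusted p = 0.000109). In HS_Chol none passed against NC and 4 rose against HS, with Ephx1 at 1.67 ± 0.20 (adjusted p = 2.17e-05) and the export pump gene Abcc3 at 2.51 ± 0.30 (adjusted p = 2.17e-05). Of 10 receptor and regulator genes, Nr1i2 rose and the bile acid receptor gene Nr1h4 fell with cholic acid, 2 fell in Chol_CA against NC and 2 in Chol_CA against CA, and none passed with HS or HS_Chol against NC. Of 8 electron donor and haem genes, Por alone rose with cholic acid and 2 fell, and in Chol_CA against CA 3 fell and 1 rose.

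Of 15 tested genes that release arachidonic acid or act on it or its epoxides, 4 rose and 4 fell with cholic acid (median log2 fold change 0.01 against 0.01 for all tested genes). Of all tested genes 5.22% rose and 4.61% fell there. The phospholipase gene Pla2g6 rose (log2 change 1.13 ± 0.16, adjusted p = 0.000145) and the hydroxylase gene Cyp4f14 fell (log2 change −1.90 ± 0.27, adjusted p = 0.000108). In Chol_CA against NC 1 rose and 8 fell, where 15.0% and 9.35% of all tested genes did. Among those that fell were Cyp4a10 (log2 change −5.63 ± 0.54, adjusted p = 5.81e-07) and Cyp4a14 (log2 change −8.09 ± 0.85, adjusted p = 1.49e-06). Sequence shared between Cyp4a genes was not counted. Of 12 other hepatic P450 genes for foreign compounds, 4 rose and 3 fell with cholic acid, and none rose and 4 fell in Chol_CA against NC. Cyp2a4 of this list stood at 0 to 0.43 CPM in NC and 30.9 to 386 CPM in CA. It passed the filter only through CA, so its rise is favoured by the filter. Of 14 tested genes known to be higher in female liver, 12 rose and 2 fell with cholic acid. In Chol_CA against CA 12 fell and none rose, where 7.8% and 13.4% of all tested genes did. Cyp2a4, Cyp2b9 and Cyp3a44 of this list passed the filter only through CA, so they add no support to these counts. Of 23 genes known to be higher in male liver, 14 fell and none rose with cholic acid, and 12 rose and 1 fell in Chol_CA against CA.

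Markers of other cell types and of liver zones moved with the diets as well. Of all tested genes, 5.22% rose and 4.61% fell in CA against NC. These shares were 15.0% and 9.35% in Chol_CA against NC, and 13.4% and 7.8% in Chol_CA against CA. Of 18 pericentral hepatocyte markers, 12 fell and none rose in CA against NC (sum 13743 to 14733 CPM in NC and 6259 to 8691 in CA), where Cyp2c50 and Cyp2c54 fell and Cyp2c29 and Cyp2c55 rose. In Chol_CA against NC 12 fell and 1 rose (sum 5863 to 8235 CPM in Chol_CA), and in Chol_CA against CA 8 rose and 1 fell. Of the 16 Kupffer cell and macrophage markers, 12 rose in CA against NC, all 16 in Chol_CA against NC and 12 in Chol_CA against CA, with none at 0 reads in any diet. Of 10 stellate cell and fibroblast markers 5 rose in Chol_CA against NC and 9 against CA. The part of these shifts in the values of the Cyp2c genes was not tested.

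Since reads may move between near copies, reads were also summed within each sequence group, a setting chosen after the sequences and values were seen. The Cyp2c29, Cyp2c38 and Cyp2c39 sum had a log2 change of 1.57 in CA and −1.99 in Chol_CA against NC. The sum of Cyp2c37, Cyp2c50 and Cyp2c54 had −1.02 (adjusted p = 0.00846) and −1.51. The sum of Cyp2c40, Cyp2c67, Cyp2c68 and Cyp2c69 had −0.56 (adjusted p = 0.0418) in CA, so that the value of Cyp2c68 alone changed sign. In the interaction this last sum did not pass (−0.03, adjusted p = 0.961), unlike Cyp2c68 alone. Per library Cyp2c67 had 946 to 2603 reads and Cyp2c68 274 to 1483.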

How the data were processed

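RNA from mouse liver was sequenced as single-end reads of 50 bases, from libraries of a stranded total RNA kit, per the labels' protocols. The authors deposited raw read counts per gene, made with STAR 2.6.1c (GeneCounts option) on mm10, per the labels and the submitters' processing notes. The strand counted is not given in the sources used here. Of 23 columns of counts, 20 were matched to a diet by name, and 3 that matched no label were not used. The labels list 24 samples. The 3 of a sixth diet (high sucrose, 2% cholesterol and cholic acid) were not analysed here, and HS_Chol has 3 columns for 4 labelled samples.

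Counts were tested with edgeR 4.0.16 (quasi-likelihood, TMM scaling, filterByExpr with a minimum count of 10, robust fit) in R 4.3.3, over all 20 libraries with 1 mean per diet, so that all diets share 1 estimate of the spread. Benjamini-Hochberg adjustment ran over 12595 genes in each of 7 comparisons, and a call is an adjusted p under 0.05. The standard error is the log2 fold change divided by the square root of F. The 4 comparisons against NC share its libraries. CPM uses the TMM-scaled library size. Alternatives were other size factors, filters, fits with the compared diets only, leaving out each library, DESeq2 1.42.0, libraries of positive length trend only, and summed reads. No 2 replicates agreed within sampling noise (31 pairs, lowest chi-square per gene 4.86). Positions and shared stretches come from GENCODE M21, and promoters from RefSeq. Of the symbols, 29014 matched by name, 1875 by an older name and 3547 did not.

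Members and lists were chosen with earlier results of these data known. Genes named from a list were the 2 called genes with the smallest adjusted p per list and comparison, and genes most like a member those with the smallest root mean square difference. Of the genes most like a member, 2 are not reported here.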

Additional observations from a re-analysis of the deposited data

Results flagged for a closer look

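Libraries that stood apart from their diet by Dixon's criterion were found in 5 of 40 sets of values, where chance flags about 1 in 20. Cyp2c38 was high in HS_0 (49.7 CPM, the other 4 HS libraries at 10.5 to 21.3) and low in Chol_CA_1 (4.01 CPM, the others at 8.12 to 8.35). Cyp2c39 was high in HS_0 (1.99 CPM), Cyp2c50 in NC_3 (645 CPM) and Cyp2c69 in HS_1 (0.815 CPM, from few reads).

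The effect of cholesterol differed between the base diets by the test of the difference for 6 members: Cyp2c55 (−7.14 on the log2 scale), Cyp2c38 (−4.79), Cyp2c29 (−4.65), Cyp2c39 (−3.00), Cyp2c37 (−1.57) and Cyp2c68 (−1.34). Of all tested genes, 3.53% had a negative and 2.47% a positive difference past the test. Leaving out 1 library lost the call of Cyp2c37 in 11 of 16 fits and that of Cyp2c39 in 4 of 16. Cyp2c68 did not pass when the reads of its near copies were summed. The values of both effects stand in the report.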

How the results depend on the processing

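No paired analysis was possible because the columns of the count table are numbered from 0 and the labels from 1, so no column could be tied to a labelled replicate number. Over all alternatives, the values of the members stayed on their side of the threshold with the same direction in 964 cases, lost the call in 39, gained it in 26 and changed sign in 15. With each library left out in turn, the number of members called was 2 to 3 in HS against NC, 0 in HS_Chol against NC, 5 to 8 in CA against NC, 7 to 9 in Chol_CA against NC, 0 to 1 in HS_Chol against HS, 5 to 6 in Chol_CA against CA and 4 to 7 in the interaction. Cyp2c69 did not pass the filter and was not tested in the comparisons with NC when NC_0, NC_1 or NC_2 was left out, so those fits cannot count it. With libraries of positive length trend, which leave HS_3 and HS_4 for HS, Cyp2c50 (−0.99) and Cyp2c69 (−3.00) were also called in HS against NC. Cyp2c69 had 2 and 1 reads in these HS libraries. In HS_Chol against NC 1 was called, Cyp2c55, with the compared diets only (−1.75), with positive length trend (−1.94) and by DESeq2 (−1.78). Cyp2c38 lost its call in CA against NC with no filter (adjusted p = 0.0522).

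Signs changed as follows, on the log2 scale. With all Cyp2c reads summed, the single row stood at 0.90 in CA against NC, where Cyp2c37, Cyp2c50, Cyp2c54 and Cyp2c69 were negative, and at 0.45 in HS_Chol against HS, where Cyp2c39 and Cyp2c68 were negative. With near-identical members summed, a setting chosen after seeing the data, Cyp2c39 gave 1.06 and Cyp2c69 −0.59 in HS_Chol against HS, and Cyp2c68 −0.56 in CA against NC. These follow from the summing itself. Without 1 library, Cyp2c54 ran from −0.39 to 0.31 (positive without CA_2 or Chol_CA_2, 0.04) and Cyp2c69 from −0.66 to 0.13 (positive without CA_3 or Chol_CA_2, 0.11) in Chol_CA against CA. Cyp2c68 ran from −0.16 to 0.0068 in HS (positive without HS_0) and from −0.0041 to 0.27 in CA (negative without CA_2) against NC. Nr1i3 stood at −0.027 in HS_Chol against NC without HS_Chol_0 (up to 0.47 without NC_3) and at 0.12 in CA against NC with positive length trend only. Nr1i2 in HS_Chol against HS stood at −0.0024 with relative log expression factors, −0.014 with no filter, −0.00085 with the stricter filter, −0.0021 in DESeq2, and, without 1 library, from −0.076 to 0.061, negative without HS_1, HS_2, HS_3, HS_4, HS_Chol_0 or HS_Chol_1. Cyp2b10 in HS_Chol against HS stood at 0.13 with positive length trend, and from −1.01 to 0.43 without 1 library (0.43 without HS_0, 0.34 without HS_Chol_2), from 0 to 3 reads a library. The cause of the other changes was not tested. Depth limits Cyp2c39, Cyp2c40 and Cyp2c69 most, with at most 16 reads a library outside CA.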
